A study of Homo sapiens with 6 samples.

Results

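The 8 genes described here are H19, IGF2, the receptors IGF1R and IGF2R, the IGF2 mRNA binding proteins IGF2BP1, IGF2BP2 and IGF2BP3, and LIN28B. They were chosen by name, as the imprinted H19-IGF2 locus with its receptors and the fetal RNA binding proteins linked to it, from 62252 genes to which the deposited transcripts could be assigned. All 8 are listed in every library, and 7 of them passed the filter of a mean count above 10, which left 21045 genes to test. IGF2 did not pass. The members and the related lists below were chosen with earlier results of these data known. Their called shares, given beside those of all genes, are thus descriptions only.

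The libraries are polyA-selected mRNAseq of K562, an established human erythroid leukemia line. All 6 came from K562flox cells, a clone with lox sites at the AAVS1 locus, into which a doxycycline-inducible Flag-PCBP1 cassette with puromycin resistance had been exchanged. The 3 −Dox libraries (control) and the 3 +Dox libraries (PCBP1 overexpression, OE) thus carry the same cassette, and they differ both in doxycycline and in Flag-PCBP1, which cannot be told apart in these samples. The dose and duration of doxycycline for these libraries are not given in the sources used here, where overnight treatment is described for another assay on such lines, and nothing says that the 3 replicates of a group were separate cultures, so p-values measure the spread between these libraries only. Between 70905656 and 84177316 read pairs were assigned to transcripts per library. PCBP1, which binds C-rich RNA, rose from 261 ± 12.0 CPM (counts scaled to the library total, SD over 3 libraries) in −Dox to 1001 ± 56.2 CPM in +Dox. Its log2 fold change was 1.94 with SE 0.055 (edgeR quasi-likelihood test, adjusted p = 5.22e-10), as the labels say.

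The markers of the line were present. All 10 erythroid markers had a mean of at least 1 CPM, led by HBG2 at 3580 CPM in −Dox, and their summed level was 7868, 9019 and 8049 CPM in −Dox and 8553, 7770 and 8150 CPM in +Dox. Of the 10, 3 were called higher in +Dox, EPOR and TAL1 among them, and 2 lower, HBZ and LMO2, with a median log2 fold change of -0.04, where 15.8% of all genes tested were called in either direction (edgeR adjusted p under 0.05). Of 10 markers of other cell types, 7 had a mean under 1 CPM and MS4A1 was at 0 in every library. EPCAM was the most abundant with 45.8 CPM in −Dox against 42.3 CPM in +Dox, and it did not pass the test (adjusted p = 0.155), nor did ALB or COL1A1 (adjusted p = 0.603 and 0.634).

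H19 is a long noncoding RNA transcribed from the maternal chromosome at 11p15.5 and is abundant in fetal tissues, where it also serves as the host transcript of miR-675. Its paternally expressed neighbour IGF2 encodes a fetal growth factor that signals through IGF1R and the insulin receptor and is cleared by IGF2R. The IGF2BP proteins bind and stabilise many mRNAs of the fetal programme, and LIN28B blocks the maturation of let-7 miRNAs, whose targets include LIN28B itself and IGF2BP mRNAs. LIN28B is also known for keeping fetal features in erythroid cells.

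The sequences shown first are those that tie the members to miRNAs. The miRNA carried in an exon of H19 and the let-7 miRNAs that LIN28B acts on are given from RefSeq (GRCh38.p14), with the seed (bases 2 to 8) in capitals. Both arms of miR-675 lie in the hairpin at chr11:1996759-1996831 on the minus strand. The 4 let-7 miRNAs shown share 1 seed with each other and with 11 mature human miRNA names in all, themselves included. The seeds of both arms of miR-675 differ from it and from each other.
miR-675-5p: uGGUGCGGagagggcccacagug
miR-675-3p: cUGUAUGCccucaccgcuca
let-7a-5p: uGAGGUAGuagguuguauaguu
let-7b-5p: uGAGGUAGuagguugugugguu
let-7g-5p: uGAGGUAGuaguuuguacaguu
let-7i-5p: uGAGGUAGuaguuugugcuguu
Mature miRNAs are short, carry no polyA tail and are not measured in polyA libraries. The hairpin lies wholly within an exon of H19 on the same strand, so its reads cannot be told apart from those of H19 and no level is given for it.

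H19 (ENSG00000130600.22, chr11:1995166-2004552, minus strand) was lower in +Dox. Its estimated counts were 6899, 7409 and 8871 in −Dox and 3120, 3734 and 4302 in +Dox. Scaled to library size these are 81.5, 95.1 and 119 CPM in −Dox and 44, 44.2 and 53.0 CPM in +Dox. Every +Dox library lay below every −Dox library, and replicate 3 was the highest of each group. The means were 98.5 ± 18.8 and 47.0 ± 5.15 CPM (SD, n = 3), and H19 changed by -1.07 on the log2 scale with SE 0.113 and a 95% interval of -1.29 to -0.84, or 47.8% of the −Dox level. The adjusted p of edgeR over all 21045 genes was 5.67e-05, and H19 ranked at 165 by p. Differentially expressed genes (DEGs) had to pass adjusted p at 0.05 and to change by more than 1 on the log2 scale in either direction. They made up 1.46% of the genes tested, and H19 was the only member that passed both limits. It kept the call in all 12 alternative fits, with log2 fold changes from -1.19 to -0.91, but without −Dox replicate 3 the fold change of -0.91 falls short of the DEG limit. In bulk RNA, fewer cells with H19 and less H19 per cell cannot be told apart. Erythroid markers moved between the same groups in both directions, EPOR by 0.97 and TAL1 by 0.44 on the log2 scale, HBZ by -0.40 and LMO2 by -0.20 (the LMO2 call was lost when replicate 2 or 3 of either group was left out, with adjusted p from 0.0599 to 0.0995), and their part in the H19 difference was not tested.

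**Figure D1:**
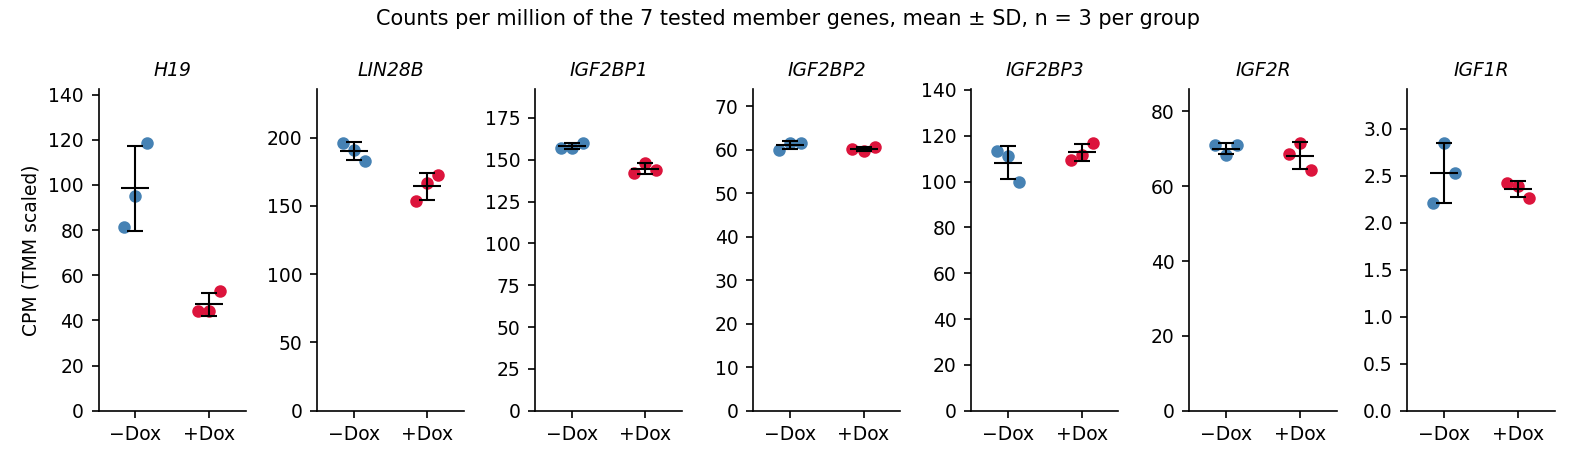
CPM (linear axes from 0) of the 7 tested member genes in each library, with −Dox in blue, +Dox in red and black bars for mean ± SD (n = 3). The 3 +Dox libraries of H19 sit between 44 and 53.0 CPM, below all −Dox libraries, and LIN28B and IGF2BP1 also separate, by smaller amounts.

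The H19 signal came mostly from transcripts that begin at 1 place. H19-203 held 58.4% of the H19 TPM (the share of transcripts after correction for length), H19-204 held 13.7% and H19-207, which begins at 2001706, held 9.58%. The 11 annotated transcripts that begin within 200 bases of the H19-203 start together held 83.9%, 93.9% and 87.2% in −Dox and 83.4%, 88.5% and 85.3% in +Dox. H19-203 itself stood at 26.3, 26.8 and 35.3 TPM in −Dox and at 13.3, 14.0 and 16.4 TPM in +Dox. The log2 difference of H19-203, on the log2(TPM + 0.1) scale, was -1.01 with SE 0.14 (limma, adjusted p = 0.0415), in a comparison that called 0.806% of 55240 transcripts. This was the only one of the 7 tested H19 transcripts that was called. Leaving out any 1 of the 6 libraries kept the log2 difference between -1.09 and -0.87, with adjusted p from 0.094 to 0.146 in fits that called only 7 to 57 transcripts in all, against 445 with all libraries. The share of H19-203 in H19 was 57.9% ± 3.0 in −Dox and 60.4% ± 3.21 in +Dox (exact permutation p = 0.4, where 3 against 3 libraries cannot go below 0.1), and that of H19-204 was 13.7% ± 4.35 and 12.5% ± 5.54 (exact permutation p = 0.9). Of 12 H19 transcripts with a share above 0 in some library, the shares of 2 minor ones, H19-209 (1.59% in −Dox and 0.70% in +Dox) and H19-214 (0.53% and 0.11%), did not overlap between the groups (exact permutation p = 0.1 for each). Over the transcripts of all 7 tested members this held for 6 of 61, and 9.97% of 124572 transcripts of tested genes did the same, so these shares give no result about the members.

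**Figure D2:**
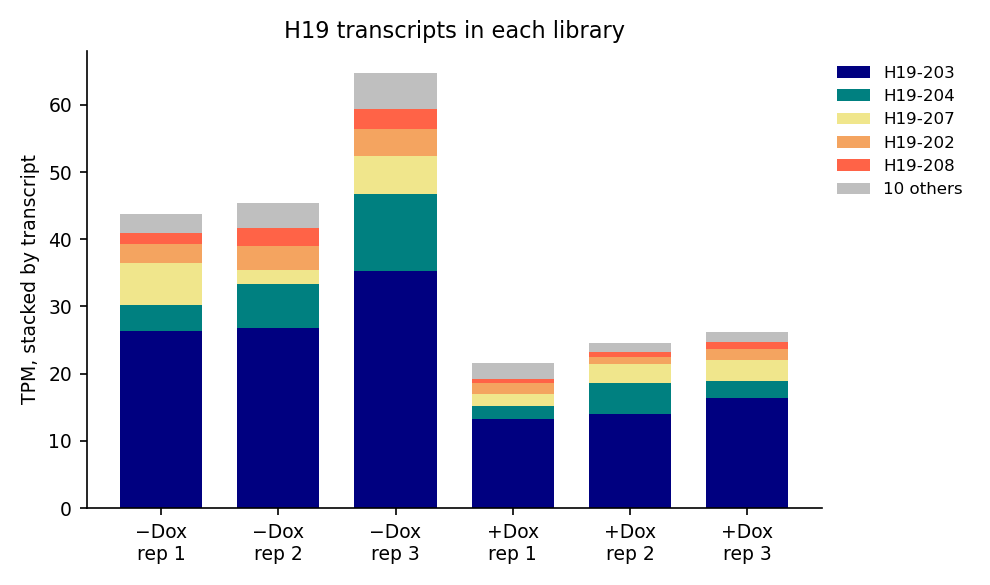
TPM of H19 in each of the 6 libraries, stacked by annotated transcript. The 3 +Dox bars reach between 21.5 and 26.1 TPM and the 3 −Dox bars between 43.8 and 64.8 TPM, with H19-203 as the largest part of each.

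Because the overexpressed protein is known for binding runs of C, the C-rich stretches of H19-203 were located. The sequence is that of GENCODE version 44, which has 2326 bases where the deposited files used an earlier version of 2358 bases. The letters CCCC, read on the transcript strand and counted without overlap, occur 14 times in 2326 bases, or 6.02 per kb. Of 19858 leading transcripts of tested genes with at least 500 bases, 24.2% have at least this density, so H19 is not unusual in it. The leading transcripts of IGF2BP1 (7.16 per kb) and IGF2BP2 (5.84 per kb) have like densities, and that of LIN28B has 1.1 per kb, which 85.7% of transcripts reach. The 3 windows of 30 bases of H19-203 with most C, each with 18, are shown with runs of at least 3 C in capitals. They lie at chr11:1997366-1997395, chr11:1995711-1995740 and chr11:1995229-1995258 on the minus strand, in this order, and say nothing by themselves of binding.
H19 bases 449 to 478: gtCCCttCCCtCCCCaggcctcgcttCCCC
H19 bases 1752 to 1781: cagcagcgCCCgcagcaCCCaCCCCgcacc
H19 bases 2234 to 2263: cgCCCCatctcgctctgtgCCCCtCCCCac

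IGF2 (ENSG00000167244.22, chr11:2129112-2158391, minus strand), the fetal growth factor gene that shares its enhancers with H19, was near 0. Its estimated counts were 0, 7 and 0 in −Dox and 1, 1 and 0 in +Dox, that is at most 0.09 CPM in any library, and the fit did not test it. INS and the readthrough INS-IGF2, which overlaps 20.4% of the IGF2 exon bases on the same strand, had 0 counts in all 6 libraries, as had ENSG00000284779, which overlaps 37.9% of them, and IGF2-AS had a mean of 0.004 CPM in each group. A difference of IGF2 between the groups was not detectable at this depth.

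Other genes of 11p15.5 moved in both directions. Of 21 neighbours on the list, 12 were tested, 4 rose, 1 fell and 7 were not called, with a median log2 fold change of 0.01, against 8.16% of all genes called higher, 7.68% called lower and a median of 0.01 over all genes. PHLDA2, a maternally expressed gene that restrains placental growth, fell from 13.7, 20.5 and 20.9 CPM to 10.1, 9.39 and 11.3 CPM (log2 fold change -0.84, adjusted p = 0.00124). SLC22A18, a transporter gene next to it and also maternally expressed, rose from 2.39 to 4.02 CPM (0.75, adjusted p = 0.0047), and by 1.37 on the log2 scale with a length offset (adjusted p = 0.00412). MRPL23-AS1, the noncoding RNA gene that begins 7.85 kb downstream of the H19 start, rose from 1.16 to 2.24 CPM (0.94, adjusted p = 0.00611); 4.36% of its exon bases lie opposite exons of MRPL23, which stands at 62.1 CPM, and the strand setting of the counting is not stated. TSPAN32, a tetraspanin of blood cells, rose from 7.19 to 10.8 CPM (0.59, adjusted p = 0.00318), and CTSD, the lysosomal protease cathepsin D, from 32.4 to 39.8 CPM (0.29, adjusted p = 0.0169). The call of CTSD was lost without +Dox replicate 3 (adjusted p = 0.066) and with a length offset (adjusted p = 0.0717). CDKN1C, a maternally expressed cell cycle inhibitor, stood at 12.8 CPM in both groups, and KCNQ1OT1, the antisense RNA that silences its domain, had 99.2 ± 13.5 and 94.6 ± 5.85 CPM (-0.07 with SE 0.081, adjusted p = 0.645). The genes that fell and those that rose were thus interspersed along the region.

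**Figure D3:**
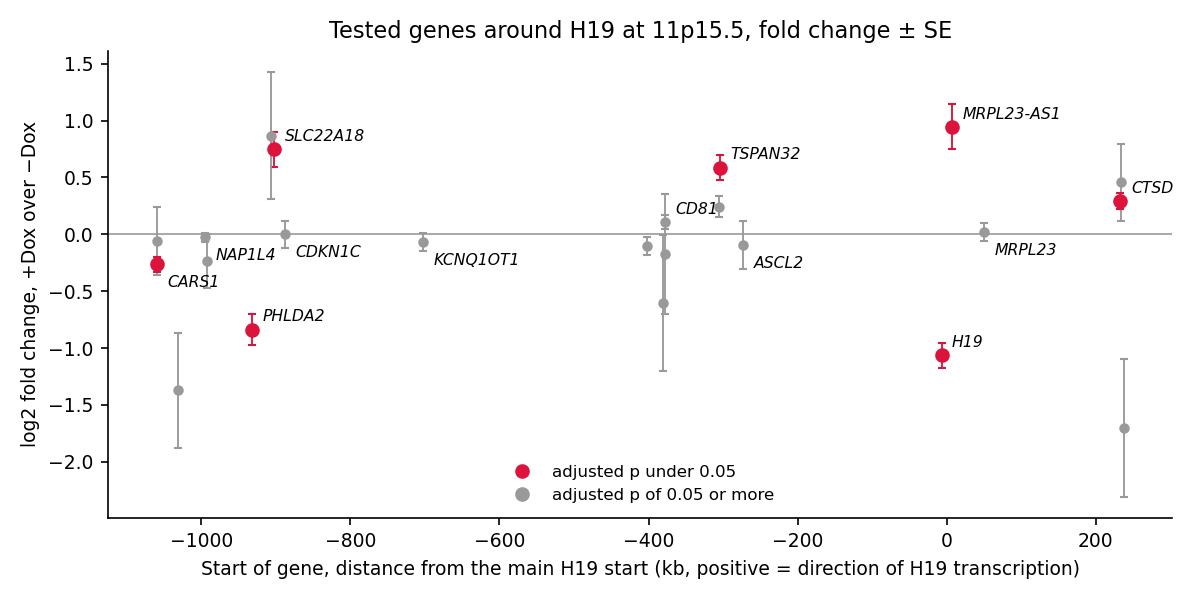
Log2 fold change (+Dox over −Dox, ± SE) of the 23 tested genes around H19 against the distance of their start from the main H19 start in kb, with red points for adjusted p under 0.05 by edgeR. H19 and MRPL23-AS1, which begin within 10 kb of that start, lie on opposite sides of 0, and PHLDA2 and SLC22A18 do so as well.

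LIN28B (ENSG00000187772.8, chr6:104936616-105083332, plus strand), the let-7 blocking protein, was lower in +Dox by a small amount. It stood at 196, 191 and 183 CPM in −Dox and at 153, 167 and 173 CPM in +Dox, with no overlap between the groups. The log2 fold change was -0.21 with SE 0.053 and an interval of -0.31 to -0.11, or 86.5% of the −Dox level (adjusted p = 0.0174). The call rests in part on 1 library, since without +Dox replicate 1 the change was -0.16 and the adjusted p 0.0755. Nearly all of its TPM (99.9%) came from LIN28B-201, which limma, in the comparison that called 0.806% of transcripts, did not call (-0.26 on the log2(TPM + 0.1) scale, SE 0.071, adjusted p = 0.187). H19 and LIN28B were the 2 members called of 7 tested, both lower, with a median of -0.10 over the 7, where 15.8% of all genes were called in either direction. In 3 of the 7, H19, LIN28B and IGF2BP1, the groups did not overlap, as in 33.2% of all genes tested.

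IGF2BP1 (ENSG00000159217.10, chr17:48997385-49056145, plus strand), which binds IGF2, MYC and other fetal mRNAs, stood at 157, 157 and 160 CPM in −Dox and at 142, 148 and 144 CPM in +Dox. The groups did not overlap, and the means of 158 ± 1.81 and 145 ± 3.35 CPM differ by a log2 fold change of -0.13 with SE 0.044 (edgeR adjusted p = 0.064). DESeq2 called it (-0.14, adjusted p = 0.0174), while the other 11 alternatives did not. IGF2BP2 (ENSG00000073792.16, chr3:185643130-185825042, minus strand), the paralog found in many adult tissues, had 60.1, 61.5 and 61.7 CPM in −Dox and 60.1, 59.7 and 60.6 CPM in +Dox, with an interval of -0.11 to 0.07 on the log2 scale (adjusted p = 0.818). IGF2BP3 (ENSG00000136231.14, chr7:23310209-23470491, minus strand), an oncofetal paralog, had 113, 111 and 100 CPM in −Dox and 110, 112 and 117 CPM in +Dox, with an interval of -0.05 to 0.17 (adjusted p = 0.532). Of its exon bases 17.8% lie opposite exons of MALSU1, a gene at 61.2 CPM in −Dox. The main transcripts were IGF2BP1-201, with 86.8% of the gene's TPM, and IGF2BP3-201, with 76.3%, while IGF2BP2 was spread over IGF2BP2-202 (36.2%), IGF2BP2-201 (26.8%), the 380-base fragment IGF2BP2-206 (16.2%) and IGF2BP2-204 (10.4%). The share of IGF2BP2-206 was 19% ± 1.67 in −Dox and 13.1% ± 3.38 in +Dox (exact permutation p = 0.1, the smallest that 3 against 3 allows), on 19 to 49 counts per library. The shares of the minor transcripts IGF2BP3-212 (5.34% and 2.01%), IGF2BP3-210 (1.67% and 3.07%) and IGF2BP3-206 (1.83% and 1.28%) did not overlap either, beside the 9.97% given above.

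Of the receptors, IGF2R (ENSG00000197081.16, chr6:159969082-160113507, plus strand), which carries IGF2 to lysosomes, had 70.9, 68.3 and 70.9 CPM in −Dox and 68.5, 71.6 and 64.3 CPM in +Dox, an overlap with a log2 fold change of -0.04 and an interval of -0.14 to 0.06. The full-length transcript IGF2R-201 of 14061 bases held 28.8% of its TPM, and most of the rest lay in shorter annotated pieces, IGF2R-207 with 23.5%, IGF2R-203 with 18.9% and IGF2R-205 with 14.1%. In estimated counts, IGF2R-201 had 2671 to 3564 per library, where the whole gene had 4860 to 6059. The 762-base IGF2R-203 rested on 33 to 111 counts per library. IGF1R (ENSG00000140443.15, chr15:98648539-98964530, plus strand), the tyrosine kinase receptor of both IGFs, was low. It stood at 2.21, 2.85 and 2.53 CPM in −Dox and at 2.42, 2.39 and 2.27 CPM in +Dox (log2 fold change -0.10, SE 0.159, adjusted p = 0.743). The alternatives gave IGF1R values from -0.46, with a length offset, to -0.01, and none of them called it. IGF1R-217 held 80.7% of its TPM, and IGF1R-205 held 11.1% of it from 10 counts in −Dox replicate 1 alone.

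Compared per length, the order of the members changed between the groups. In −Dox the TPM of H19 lay between 43.8 and 64.8, above LIN28B at 34.6 to 37.2 and IGF2BP3 at 29 to 35.4, which overlap each other. In +Dox H19 lay between 21.5 and 26.1 TPM, below LIN28B at 27.5 to 31.6 and IGF2BP3 at 31.0 to 32.1 and above IGF2BP2 at 17.5 to 20.8. IGF2BP2 and IGF2BP1 overlap in both groups, with IGF2BP1 at 18.0 to 19.4 TPM in −Dox and 15.9 to 18.1 TPM in +Dox. IGF2R followed at 6.77 to 10.1 TPM over all libraries, then IGF1R at 0.16 to 0.34 TPM and IGF2 at 0 to 0.083 TPM, with no overlap between these neighbours.

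**Figure D4:**
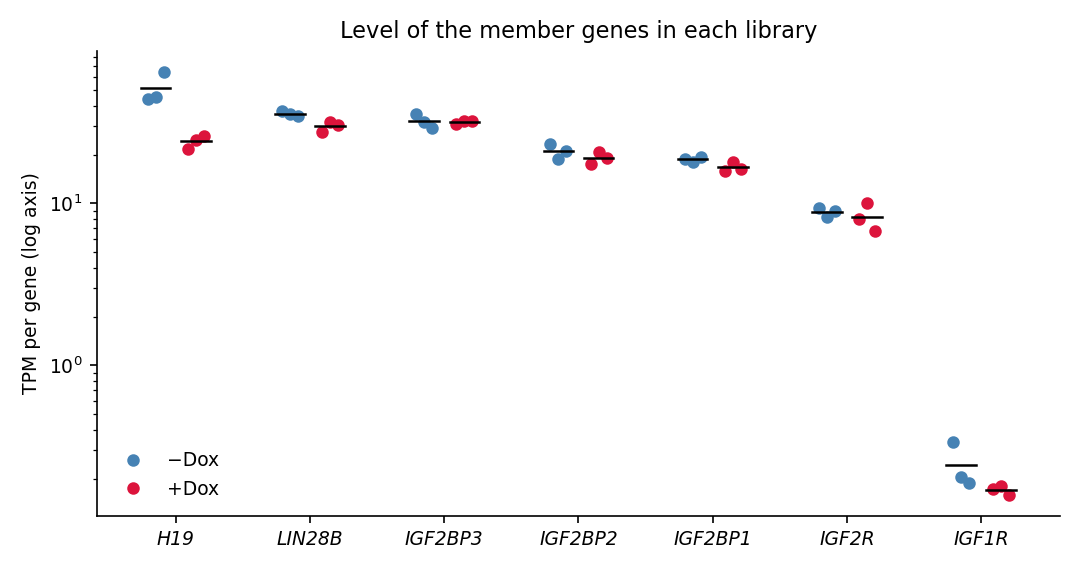
TPM per gene (log axis) of 7 members in each library, −Dox in blue and +Dox in red, with black lines for the group means; IGF2, listed at 0 TPM in 3 libraries, is not drawn. H19 is the highest member in −Dox and lies below LIN28B and IGF2BP3 in +Dox.

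The genes whose levels followed H19 most closely over the 6 libraries, by Pearson's r of log2 CPM among 14330 genes with a mean of at least 1 CPM, were NIBAN2, CSNK1E, PTPN1, HARS2 and GPN1, with r from 0.997 to 0.999. All 5 were lower in +Dox in their mean, NIBAN2 from 33.5 to 26.8 CPM and PTPN1 from 72.1 to 60.4 CPM, and the values share libraries and groups, so r is a description only. Their log2 fold changes ran from -0.32 to -0.14. HARS2 and GPN1 were not called by edgeR (adjusted p = 0.0576 and 0.0676). The CSNK1E call was lost without −Dox replicate 3 or without replicate 1 or 2 of +Dox (adjusted p = 0.0764, 0.0633 and 0.0548).

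Of 16 imprinted genes outside 11p15.5, 11 were tested, 1 rose and 3 fell, with a median log2 fold change of -0.08, beside 15.8% called over all genes. Fits without 1 library called 2 to 3 of them. DIRAS3, a paternally expressed Ras family gene that slows growth, fell from 13.1, 15.1 and 16.1 CPM to 7.10, 7.75 and 8.89 CPM (-0.90, adjusted p = 1.01e-04). DLK1, a paternally expressed Notch-like ligand of fetal tissues, fell from 28.2, 35.3 and 41.6 CPM to 19.4, 18.8 and 23.5 CPM (-0.77, adjusted p = 9.76e-04). In both, all +Dox libraries lay below all −Dox libraries, and −Dox replicate 3 was the highest library, as for H19. GNAS, the stimulatory G protein subunit, rose from 258 to 294 CPM (0.19, adjusted p = 0.0156), a call lost when replicate 2 of −Dox, or replicate 1 or 3 of +Dox, was left out (adjusted p = 0.0678, 0.0599 and 0.0519). PLAGL1, a zinc finger factor of the imprinted gene network, fell from 42.0 to 37.3 CPM (-0.17, adjusted p = 0.0481), and no fit without 1 library called it (adjusted p from 0.0617 to 0.15), nor did the one with a length offset (-0.06, adjusted p = 0.773). MEG3, the noncoding RNA opposite DLK1 in imprinting, had a mean of 0.17 CPM in −Dox and 0.35 CPM in +Dox (adjusted p = 0.247).

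Among 18 IGF ligands, receptors and binding proteins, 12 were tested, 1 rose and 3 fell (33.3% called, beside 15.8% of all genes), with 2 DEGs (1.46% of all genes were DEGs) and a median of -0.07. IGFBP4, a secreted protein that holds IGFs away from their receptor, fell from 44.7, 51.0 and 50.6 CPM to 24.5, 20.9 and 22.9 CPM, a log2 fold change of -1.10 with SE 0.072 (adjusted p = 9.97e-07). STC2, an inhibitor of the protease PAPPA that cleaves IGFBP4, fell from 6.96 to 3.85 CPM (-0.86, adjusted p = 0.00598), a call lost with a length offset (adjusted p = 0.0769). TMEM219, a receptor for IGFBP3, rose from 35.9 to 45.1 CPM (0.33, adjusted p = 0.00462). IGF1, the other ligand, had 9, 28 and 21 counts in −Dox and 3, 1 and 7 in +Dox (-2.37, SE 0.738, adjusted p = 0.0456). Of its exon bases 82.5% lie opposite HELLPAR, a noncoding RNA gene at 109 CPM, so its few reads are uncertain. The IGF1 call was also lost without +Dox replicate 1 or +Dox replicate 2 (adjusted p = 0.124 and 0.133), with a length offset (adjusted p = 0.155) and with a summed count above 10 as the filter. DESeq2 did not call IGF1 either. Without −Dox replicate 2 or −Dox replicate 3 its mean count was too low to be tested. Of the 9 alternatives that gave IGF1 a value, 4 called it. INSR, the insulin receptor, had 0.48 ± 0.197 and 0.99 ± 0.217 CPM (1.03, adjusted p = 0.054). It was called in 3 of 12 alternatives, by DESeq2, with no filter and without −Dox replicate 3 (1.42, adjusted p = 0.0236), and passed the DEG limit in each, while the adjusted p over all 12 reached 0.211.

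Of 23 transducers of IGF signals, 21 were tested, 1 rose and 1 fell (9.52%, beside 15.8% of all genes), with a median of -0.05. PIK3CB, a catalytic subunit of PI3 kinase, fell from 91.5 to 73.5 CPM (-0.32, adjusted p = 0.00117), and FOXO3, a transcription factor that AKT holds in the cytoplasm, rose from 10.1 to 13.6 CPM (0.44, adjusted p = 0.00257; 0.0515 with a length offset). SOS1, TSC2 and SHC1, the next by p, had log2 fold changes of -0.12, -0.11 and -0.08 and were not called in any of the 12 alternatives, where SOS1 ranged from -0.16 to -0.03 and TSC2 from -0.35 to -0.07. The values nearest to 0 for SOS1 and farthest from 0 for TSC2 came with a length offset.

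In the LIN28 and let-7 axis, 19 of 20 genes were tested, 1 rose and 5 fell (31.6% called, beside 15.8% of all genes; 4 to 6 genes in fits without 1 library), with a median of -0.08. LIN28A, the paralog of LIN28B with the same action on let-7, fell from 14.4, 15 and 14.6 CPM to 9.84, 10.0 and 10.7 CPM (-0.53, adjusted p = 4.02e-04). HMGA2, a chromatin protein of fetal and stem cells and a well-known let-7 target, fell from 43.9, 44.8 and 45.5 CPM to 31.2, 30.0 and 32.6 CPM (-0.52, adjusted p = 4.94e-05). MYC, the growth-promoting transcription factor, fell from 152, 147 and 153 CPM to 96.9, 94.6 and 88.3 CPM (-0.69, adjusted p = 2.15e-06). Spread within the groups of these 3 genes was small beside the distance between them. XPO5, which exports miRNA hairpins from the nucleus, fell from 152 to 127 CPM (-0.26, adjusted p = 0.00255). Of the XPO5 exon bases 4.1% lie opposite exons of POLR1C, a gene at 101 CPM in −Dox with a log2 fold change of -0.37. ARID3B, a DNA binding protein and let-7 target, rose from 8.64 to 11.2 CPM (0.37, adjusted p = 0.0103), a call lost without −Dox replicate 2 or +Dox replicate 1 (adjusted p = 0.0505 and 0.0555) and with a length offset (adjusted p = 0.161). Both LIN28 paralogs were thus lower in +Dox, and whether their changes differ in size was not tested.

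Matches to the let-7 seed were read in the 3′ ends of these mRNAs, because LIN28B and the IGF2BP genes are textbook let-7 targets. The letters CTACCTC, the complement of the shared seed, were searched after the stop codon on the transcript strand, in the protein-coding transcript with the highest TPM of 13437 tested genes, of which 90.95% have none. LIN28B and IGF2BP1 have 4 matches each, as has HMGA2, and IGF1R has 2, while IGF2BP2, IGF2BP3, IGF2R and LIN28A have 1 each. Of the other called genes of the axis, MYC and XPO5, which fell, have 0, and ARID3B, which rose, has 1. One match each of the 3 genes with most and the single one of IGF2BP3 are shown with 15 bases before and 8 after, the match in capitals. They lie at chr6:105078812-105078841 (plus), chr17:49051061-49051090 (plus), chr12:65963298-65963327 (plus) and chr7:23311788-23311817 (minus).
LIN28B: acccggttgcaaagtCTACCTCatgcaagt
IGF2BP1: tgtgtgcgaagtaaaCTACCTCaaggtatg
HMGA2: gccaacgttcgatttCTACCTCagcagcag
IGF2BP3: tgcatttttactcaaCTACCTCaggtattc
Of the 21 genes with at least 3 matches, a limit set after the values were seen, 3 were called lower (LIN28B, HMGA2 and NR6A1, the last not when replicate 2 of −Dox, or replicate 1 or 3 of +Dox, was left out, with adjusted p from 0.0831 to 0.0887, nor with a length offset, with 0.139) and none higher, and the median log2 fold change was 0.03. Over all 13437 genes 1385 were called lower and 1446 higher, with a median of 0.01. A match is a description of the sequence and not a measured site.

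Of 24 partners, targets and m6A factors linked to the IGF2BP proteins, all were tested, 1 rose and 5 fell (25% called, beside 15.8% of all genes), with 1 DEG (1.46% of all genes) and a median of -0.08. Fits without 1 library called 4 to 6 of them and the one with a length offset called 4. CD44, a hyaluronan receptor whose mRNA the IGF2BP proteins bind, fell from 5.40, 5.51 and 6.67 CPM to 2.33, 2.41 and 3.09 CPM (-1.16, SE 0.147, adjusted p = 2.2e-04). SYNCRIP, an RNA binding partner of IGF2BP1, fell from 433 to 371 CPM (-0.22, adjusted p = 0.00674). KIF11, a spindle motor, rose from 107 to 123 CPM (0.19, adjusted p = 0.021), and its call was lost when replicate 2 or 3 of either group was left out (adjusted p from 0.0527 to 0.0884) and with a length offset (adjusted p = 0.0618). MYC and HMGA2, given above, are on this list too, and HNRNPU is the fifth called lower (-0.15, adjusted p = 0.0483), named here after its values were seen, and of the fits without 1 library only the one without +Dox replicate 2 called it (adjusted p of the others from 0.076 to 0.145), nor was it called with a length offset (adjusted p = 0.0808).

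The regulators of the H19-IGF2 control region, where CTCF binding and DNA methylation decide which of the 2 genes is active, had 16 tested of 17, with 2 called higher, 3 called lower (31.3% in all, beside 15.8% of all genes) and a median of 0.05. DNMT3B, a de novo DNA methyltransferase, fell from 65.0, 63.7 and 62.8 CPM to 50.5, 51.2 and 48.5 CPM (-0.35, adjusted p = 4.51e-04). DNMT3A, the other de novo enzyme, rose from 14.1 to 17.1 CPM (0.28, adjusted p = 0.0147), and PLAG1, a zinc finger activator of IGF2, from 15.3 to 18.8 CPM (0.30, adjusted p = 0.012). UHRF1, which guides DNMT1 to new DNA, fell from 51.0 to 44.2 CPM (-0.21, adjusted p = 0.0481), and PLAGL1 is given above. Only the call of DNMT3B held in each fit without 1 library. That of DNMT3A was lost when replicate 2 or 3 of −Dox or replicate 1 of +Dox was left out (adjusted p = 0.0613, 0.0565 and 0.0703), that of PLAG1 without −Dox replicate 3 or +Dox replicate 2 (0.0518 and 0.0575), and that of UHRF1 without any library but −Dox replicate 1 (from 0.0886 to 0.193). With a length offset DNMT3A, PLAG1 and UHRF1 had adjusted p of 0.117, 0.455 and 0.0839, and PLAG1 a log2 fold change of 0.14. CTCF itself had 12.6 ± 0.132 TPM in −Dox and 13.8 ± 0.577 TPM in +Dox, and its germline paralog CTCFL had 77.5 ± 1.63 and 78.2 ± 1.97 TPM (neither called, and both named after their values were seen).

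Of 12 fetal and adult erythroid genes, 11 were tested, 2 rose and 3 fell (45.5% called, beside 15.8% of all genes), with 1 DEG (1.46% of all genes) and a median of -0.12. HBZ, the embryonic zeta globin, fell from 142 to 107 CPM (-0.40, adjusted p = 0.00213), and HBD, the minor adult delta globin, from 7.26 to 5.09 CPM (-0.51, adjusted p = 0.0103; 0.0598 with a length offset). KLF1, an activator of adult globin genes, rose from 79.1 to 108 CPM (0.46, adjusted p = 0.00121), and CA1, a carbonic anhydrase of adult red cells, from 0.87 to 1.77 CPM (1.02, adjusted p = 0.00832). CA1, the DEG of this list, was called in all 12 alternatives but passed the DEG limit in 9 of them, with a log2 fold change down to 0.90 without −Dox replicate 3. HMGA2, described above with let-7, is the third of those that fell.

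**Figure D5:**
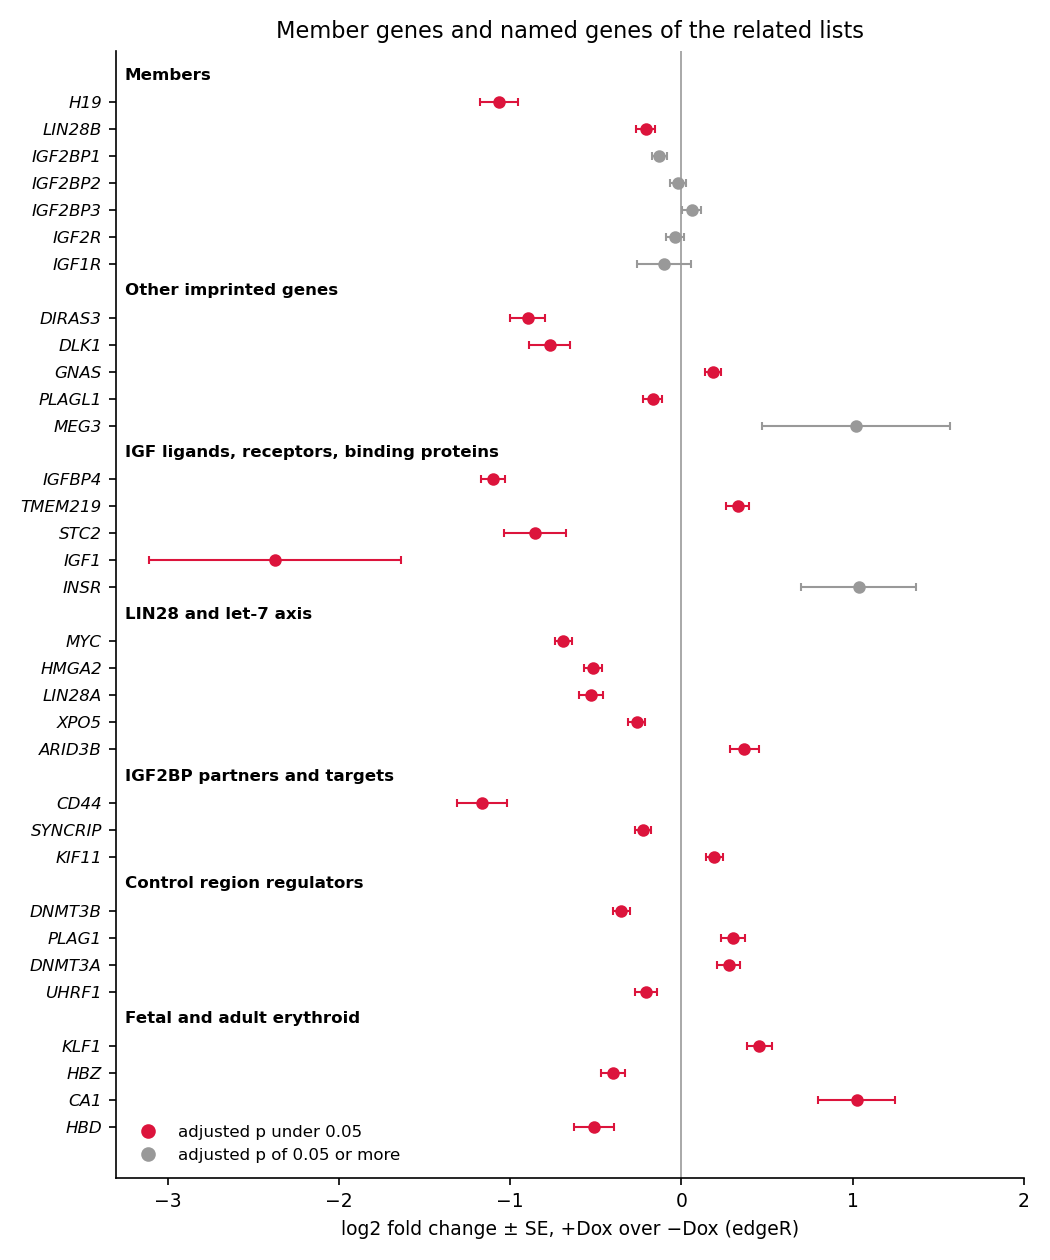
Log2 fold change (+Dox over −Dox) with SE from edgeR for the 7 tested members and named genes of 6 related lists, with red points for adjusted p under 0.05 and gray points for the rest. IGF1, H19, IGFBP4, CD44, DIRAS3, DLK1, STC2 and MYC lie below -0.6, while the IGF2BP genes and the receptors IGF2R and IGF1R lie within 0.15 of 0.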

How the data were processed

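The authors quantified each polyA library with Salmon 1.10.2, per the labels, which also name hg38, and deposited 1 table per library with an estimated count of read pairs and a TPM value per transcript. The index, strand and bias settings are not given in the sources used here. Of 252045 transcripts, 251612 were assigned to 62252 genes of GENCODE version 44, 251142 of them with the same version number; the 433 others held at most 0.138% of the counts. Expected counts were summed per gene and rounded. The test of genes, for those whose mean count exceeded 10, was that of edgeR 4.0.16 (TMM scaling, quasi-likelihood test, two-sided) and Benjamini-Hochberg adjustment, and transcripts with a mean of at least 0.5 TPM with limma 3.58.1 on log2(TPM + 0.1). Intervals are 1.96 SE. Levels of different genes were compared by TPM, other values are CPM. DESeq2 1.42.0, RLE scaling, other filters, a length offset, the replicate block and fits without 1 library were alternatives. Named genes were all members, up to 5 tested genes of smallest p per list, 11 genes named for their place at the locus or in the pathway, and the 5 most like H19. The members and lists were chosen with earlier results of these data known. The scripts were tested on simulated data. Promoter and protein sequences of the members were not used here. Some marker genes and sequences are not reported here.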

Additional observations from a re-analysis of the deposited data

How the results depend on the processing

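Among the members, H19 and the direction of LIN28B held in all 12 alternatives. LIN28B lost its call without +Dox replicate 1 (log2 fold changes without 1 library from -0.25 to -0.16, adjusted p up to 0.0755) and with the replicate block (-0.21, adjusted p = 0.0599). IGF2BP1 was called by DESeq2 (-0.14). IGF2R ranged from -0.0766 to 0.00132 without 1 library, above 0 without +Dox replicate 3. CDKN1C, at 0.00195, turned to -0.0066 with DESeq2, -0.00615 with RLE factors, -0.00555 with a summed count above 10, -0.0019 with no filter, -0.0153 with a length offset and to between -0.147 and 0.0921 without 1 library, and KCNQ1OT1 ranged from -0.132 to 0.0478 without 1 library. The causes were not tested.

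DEGs numbered 308, and 515 with no filter. Genes called at adjusted p under 0.05 numbered 3333, and 1883 with a length offset, which also left 2 calls among the IGF ligands, receptors and binding proteins and 2 among the regulators of the control region. Without 1 library the calls ranged from 2 to 3 for the other imprinted genes and from 1 to 4 for the regulators, and with the replicate block they were 2 and 3. Called transcripts numbered 445, 130 with no filter, 7 to 57 without 1 library and 1 with the replicate block. With estimated counts IGF2R-201 turned to 0.0377 and IGF2BP2-202 to 0.0663. Without 1 library IGF2R-201 ranged from -0.111 to 0.018, IGF2BP2-202 from -0.0444 to 0.057, IGF2BP2-201 from -0.236 to 0.0773 and IGF2BP3-201 from -0.0189 to 0.058, with changes of sign in each. No scaling moved the median of all genes by over 0.1.

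The replicate numbers are shared by both groups. Samples with the same number had correlations of 0.0003, -0.21 and -0.02 in their deviations from the group means. Pairs with different numbers ranged from -0.15 to 0.18. With 3 libraries per group, these values cannot decide whether samples with the same number share a batch. The replicate block left 2490 genes called and ended the calls of LIN28B, GNAS, IGF1, KIF11, PLAGL1, UHRF1, HNRNPU, LMO2, NR6A1 and PCBP2 among the genes named (adjusted p from 0.0599 to 0.158). Low counts, at most 7 per library for IGF2 and at most 28 for IGF1, limit what these libraries show.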

Other observations

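Some values around the members stand outside the comparisons above and were chosen after they were seen. LSP1, a leukocyte actin-binding protein gene near H19 at 11p15.5, had 1, 1 and 0 counts in −Dox and 4, 12 and 22 counts in +Dox, with no overlap between the groups. These counts were too few for the filter of the main fit. The fits with a summed count above 10 and with no filter admit such counts. Each called 6 of the 11p15.5 neighbours, beside 5 in the main fit, and whether LSP1 is among the 6 is not given here. CARS1, the cysteinyl-tRNA synthetase gene at the far end of the region, was lower in +Dox by edgeR (log2 fold change -0.26, SE 0.065, adjusted p = 0.0153), a call lost when replicate 3 of −Dox, or replicate 2 or 3 of +Dox, was left out (adjusted p = 0.0535, 0.0544 and 0.0593) and with a length offset (0.0667). PCBP2, the paralog of the induced PCBP1, stood at 237, 250 and 251 CPM in −Dox and at 276, 273 and 276 CPM in +Dox (0.16, SE 0.044, adjusted p = 0.0244), a call that no fit without 1 library made (adjusted p from 0.0512 to 0.0704), nor the one with a length offset (0.0707).

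Of the globin genes, the embryonic HBZ (142 to 107 CPM) and the adult HBD (7.26 to 5.09 CPM) were called lower in +Dox, as given above. HBB, the adult beta globin, had at most 0.17 CPM in any library, while HBE1 had 1617 ± 155 CPM in −Dox and 1474 ± 92.2 CPM in +Dox and HBG2 had 3580 ± 248 and 3620 ± 181 CPM. BCL11A, a repressor of the fetal globin genes, had 0.45 ± 0.176 and 0.36 ± 0.020 CPM.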
